A study of Marchantia polymorpha with 12 samples.

Results

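Genes of the AP2/ERF family were followed through 4 groups of the liverwort Marchantia polymorpha. The set holds 7 genes, taken by their listed IDs from the 20574 IDs of the count table. They are MpAP2L1 (Mp8g11450), MpAP2L2 (Mp7g13270), MpAP2L3 (Mp5g10280), MpAP2B3-1 (Mp2g22250, synonym MpRAV), MpAP2B3-2 (Mp5g11100), MpERF13 (Mp6g08690) and MpERF14 (Mp4g00380). All 7 passed the low-count filter, as 13726 IDs did in all. Their names come from the RefSeq gene table of assembly MpTak2_v7.1. The set was drawn up with the wound responses known: it joins the tested genes with an AP2L or AP2B3 symbol to a pair of ERF genes with lower means after wounding. Other ERF genes with lower means, such as MpERF16 and MpERF17, are outside the set. Differences between wounded and mock plants are therefore given below as values with no test. The tests concern the genotypes, and the difference between the wound responses of the genotypes uses the same libraries as those responses.

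The wounded groups were taken 2 h after wounding with tweezers, and the mock groups are labelled 2 h as well. By its names the mutant carries mutations in a pair of fatty acid desaturase genes; the names are Mpfad3fad7 in the titles and Mpdes6fad5 in the growth protocol. Tak-1 is the male wild-type strain. The groups were mutant wounded, mutant mock, Tak-1 wounded and Tak-1 mock, with 3 libraries each. All plants had grown for 3 weeks on agar, each library is a separate pool of 6 to 8 plants, and apical fragments without gemma cups were ground, although the tissue label reads Leaflets. How many mutant lines were used is not given in the sources used here.

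Library totals ran from 19121900 to 30821817 counts. A pair of wounded mutant libraries shares 1 column name and is written here as A and B. Transcript levels did not check the genotype. MpFAD3 ranged over 235 to 256 CPM (read counts scaled to the size of each library) in mutant mock and 205 to 218 CPM in Tak-1 mock. None of the 4 desaturases that the names can stand for was called lower in the mutant. In edgeR's test MpFAD5 was called higher in mutant mock than in Tak-1 mock (log2 fold change 0.46, adjusted p = 0.0133). MpDES5 was called higher in mutant wounded than in Tak-1 wounded (0.19, adjusted p = 0.0368). MpRBCS and 2 chlorophyll synthesis genes, as markers of green thallus, summed to 410 to 487 CPM in mutant wounded, 618 to 671 CPM in mutant mock, 330 to 421 CPM in Tak-1 wounded and 486 to 565 CPM in Tak-1 mock libraries. Of 3 antheridium or sperm markers, MpPRM and MpLC7 were at or near 0 in every group, and MpDUO1 averaged 3.11, 0.486, 3.15 and 0.390 CPM in that order. MpKAR and MpGCAM1, listed as gemma cup genes, averaged 24.97 and 8.24 CPM in mutant wounded, 51.3 and 8.08 CPM in mutant mock, 19.9 and 27.6 CPM in Tak-1 wounded and 42.0 and 34.8 CPM in Tak-1 mock libraries. In edgeR's test 2 of the 3 green thallus genes were lower after wounding in each genotype. MpRBCS was not called after wounding (log2 fold change 0.09 in the mutant and 0.18 in Tak-1). In the mutant against Tak-1 the same list had 1 gene called higher in mock and 2 in wounded plants. DESeq2 also called MpCHLD, a chlorophyll synthesis gene, higher in mock plants (adjusted p = 0.0247, against 0.0691 in edgeR). MpDUO1 was higher and MpKAR lower after wounding in both genotypes. Between the genotypes MpGCAM1 differed by -1.75 (log2) in wounded and -2.06 in mock plants without passing the test (adjusted p = 0.142 and 0.155), and MpKAR, not called by edgeR in wounded plants (0.33, adjusted p = 0.0666), was called by DESeq2 (0.0376). The part of these genes in the results below was not tested.

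AP2/ERF proteins are transcription factors of plants that bind DNA through the AP2 domain. AP2-type proteins carry the domain in repeat and are best known from Arabidopsis, where APETALA2, AINTEGUMENTA and PLETHORA act in floral organs and in meristems. AP2B3 (RAV-type) proteins join an AP2 domain to a B3 domain, another plant DNA-binding fold. ERF proteins hold the domain without repeat and include many factors that respond to wounding, ethylene and jasmonate. In Marchantia, MpERF13 is known for its role in the formation of oil bodies, organelles of specialised cells that store terpenoids and deter herbivores.

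In the mutant, the wounded libraries lay below the mock libraries without overlap for 4 members, MpAP2L1, MpAP2L2, MpAP2B3-1 and MpERF14. In Tak-1 this was so for 4 members too, with MpERF13 in the place of MpAP2B3-1. MpAP2B3-2 alone among the 7 stood higher in every wounded library, in both genotypes. Over all 13726 tested genes, libraries did not overlap on the lower side for 27.3% in the mutant and 28.9% in Tak-1, on the higher side for 32.2% in the mutant and 32.9% in Tak-1, and on either side for 59.6% and 61.8%. In edgeR's test 51.1% of all genes were called in the mutant and 54.9% in Tak-1. The median log2 fold change of the members (wounded over mock) was -0.45 in the mutant and -0.51 in Tak-1. Over all tested genes it was 0.02 and 0.01. Since the members were chosen by this contrast of wounded with mock libraries, nothing is read from their count or from their median. The gap to all tested genes is no result about the members. In bulk tissue, fewer cells of a type and less RNA per cell cannot be told apart.

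**Figure D1:**
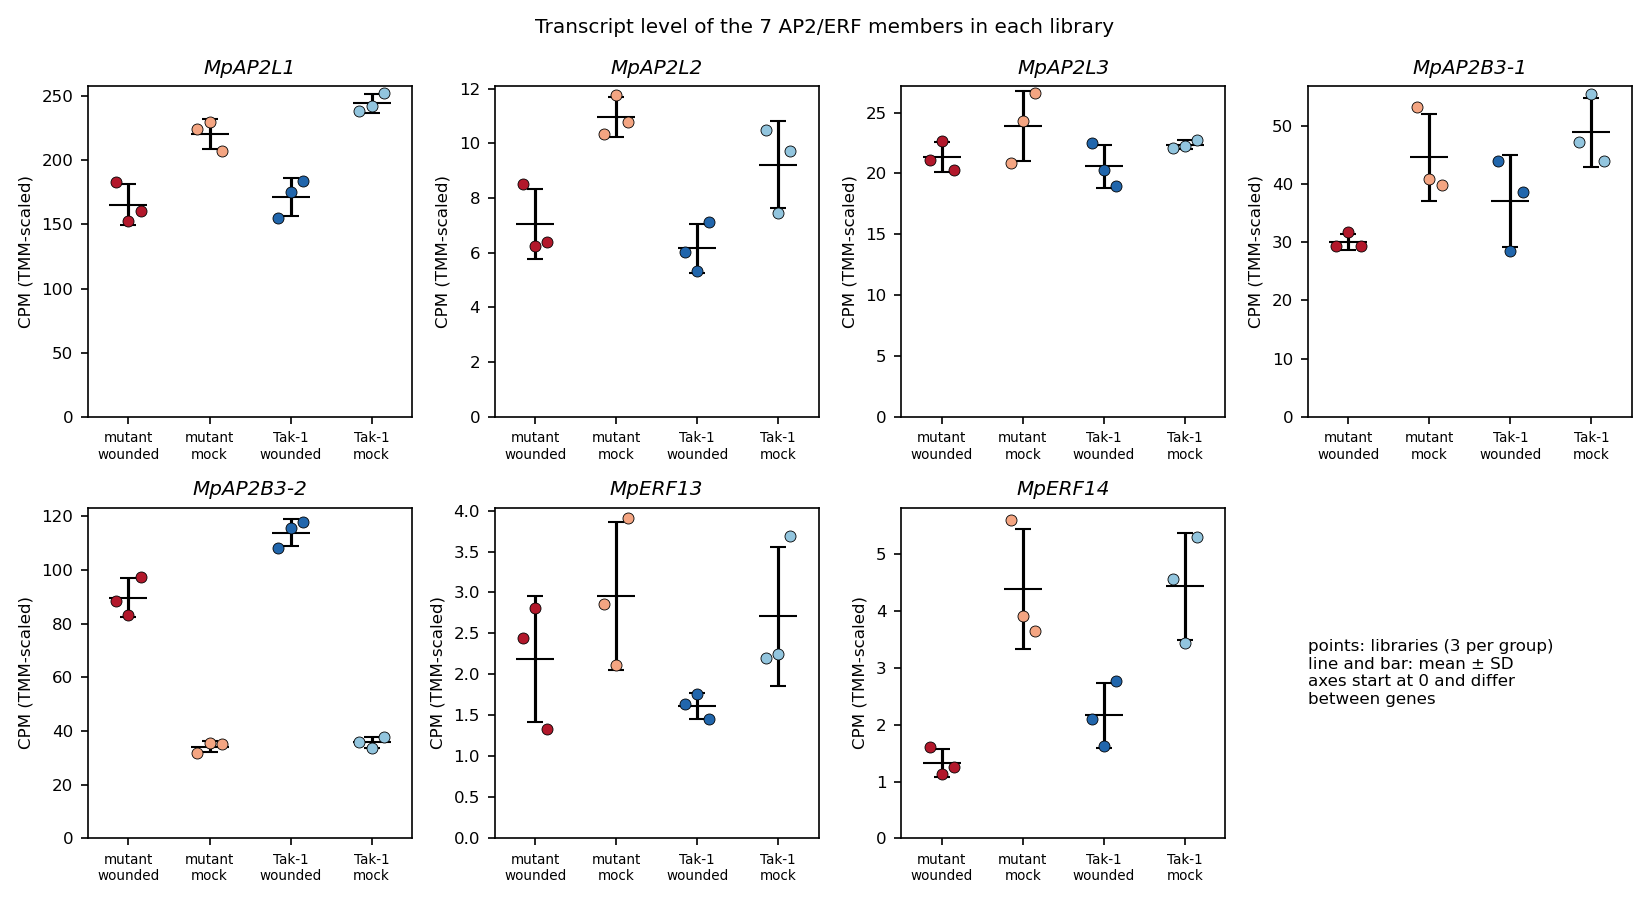
Transcript level in CPM (TMM-scaled, axes from 0) of each of the 7 genes by group; points are libraries, lines and bars are mean ± SD of 3 libraries. MpAP2B3-2 lies at 83.2 to 118 CPM in wounded and 31.8 to 37.7 CPM in mock libraries, while MpAP2L3 overlaps between all groups.

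MpAP2L1, named as AP2-like, had 183, 153 and 161 CPM in the wounded mutant (libraries 1, A and B), against 224, 230 and 207 CPM in mutant mock libraries 1 to 3. It had 155, 175 and 184 CPM in wounded Tak-1 libraries, against 238, 242 and 253 CPM in Tak-1 mock libraries. Every wounded library lay below every mock library of both genotypes. The log2 fold change (wounded over mock) was -0.41 ± 0.08 in the mutant and -0.51 ± 0.08 in Tak-1 (SE of the fit), which is 0.751 and 0.700 times the mock level. Its libraries held 3098 to 8090 counts.

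MpAP2L2, a further AP2-like gene, had 8.53, 6.25 and 6.40 CPM in wounded mutant libraries, against 10.4, 11.8 and 10.8 CPM in mutant mock libraries. It had 6.05, 5.32 and 7.12 CPM in wounded Tak-1 libraries, against 10.5, 7.45 and 9.71 CPM in Tak-1 mock libraries. The wounded libraries lay below the mock libraries within each genotype, and wounded mutant library 1 lay above Tak-1 mock library 2. The log2 fold change was -0.63 ± 0.17 in the mutant and -0.58 ± 0.17 in Tak-1 (SE), the mutant value being -0.37 without both libraries A and B.

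MpAP2L3 had 21.1, 22.7 and 20.3 CPM in wounded mutant libraries, against 20.9, 24.3 and 26.6 CPM in mutant mock libraries. It had 22.5, 20.2 and 19.0 CPM in wounded Tak-1 libraries, against 22.1, 22.2 and 22.8 CPM in Tak-1 mock libraries. All 4 groups overlapped, and the log2 fold changes were -0.16 ± 0.10 in the mutant and -0.12 ± 0.10 in Tak-1 (SE). Leaving out mutant mock library 1 or 3 gave -0.26 and -0.08 in the mutant, and leaving out wounded Tak-1 library 1 or 3 gave -0.19 and -0.06 in Tak-1. Of the 7 genes it had the smallest fold change in both genotypes, and 73.6% of all tested genes in the mutant and 82.1% in Tak-1 differed more between wounded and mock plants.

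The AP2-like group has further genes in the table. Of 7 IDs with an AP2L symbol, MpAP2L1, MpAP2L2 and MpAP2L3 had counts, and MpAP2L4, MpAP2L5, MpAP2L6 and MpAP2L7 had 0 counts in all 12 libraries. A count of 0 allows up to 3 counts, or 0.0937 to 0.158 CPM per library, for counting error alone. MpAP2L5, MpAP2L4 and MpAP2L7 follow each other directly in the gene order of the reference table, with MpAP2L6 close by, and reads of similar neighbouring genes may be discarded in counting.

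The AP2B3 pair showed unlike values after wounding. MpAP2B3-1, the RAV gene of the set, had 29.4, 31.7 and 29.3 CPM in wounded mutant libraries, against 53.2, 40.8 and 39.8 CPM in mutant mock libraries. It had 44.04, 28.6 and 38.7 CPM in wounded Tak-1 libraries, against 47.2, 55.5 and 43.9 CPM in Tak-1 mock libraries. The mutant groups did not overlap, whereas wounded Tak-1 library 1 lay just above Tak-1 mock library 3. The log2 fold change was -0.57 ± 0.15 in the mutant and -0.40 ± 0.15 in Tak-1 (SE), the Tak-1 value being -0.24 without wounded library 2.

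MpAP2B3-2, which has the same pair of domains by its name, had 88.4, 83.2 and 97.5 CPM in wounded mutant libraries, against 31.8, 35.4 and 35.3 CPM in mutant mock libraries. It had 108, 116 and 118 CPM in wounded Tak-1 libraries, against 35.7, 33.8 and 37.7 CPM in Tak-1 mock libraries. The wounded groups stood far above the mock groups and also apart from each other, with every mutant library below every Tak-1 library. The log2 fold change was 1.39 ± 0.08 in the mutant and 1.67 ± 0.08 in Tak-1 (SE), which is 2.63 and 3.19 times the mock level. With upper-quartile scaling, which moved the all-gene median by -0.14 in the mutant and -0.19 in Tak-1, MpAP2B3-2 stood at 1.26 and 1.48. MpAP2L3 then stood at -0.30 and -0.31 and MpAP2L1 at -0.55 and -0.71, and no member changed direction.

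A ratio of counts within a library does not depend on the scaling between libraries. The ratio of MpAP2B3-2 to MpAP2B3-1 counts was 2.99 ± 0.353 in mutant wounded, 0.784 ± 0.162 in mutant mock, 3.18 ± 0.802 in Tak-1 wounded and 0.741 ± 0.125 in Tak-1 mock libraries (SD, n = 3). It was above 1 in all wounded libraries, at 2.46 to 4.05, and below 1 in all mock libraries, at 0.597 to 0.886. Transcript lengths were not used, so a ratio above 1 does not show more transcripts of MpAP2B3-2, and only its change between groups can be read.

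**Figure D2:**
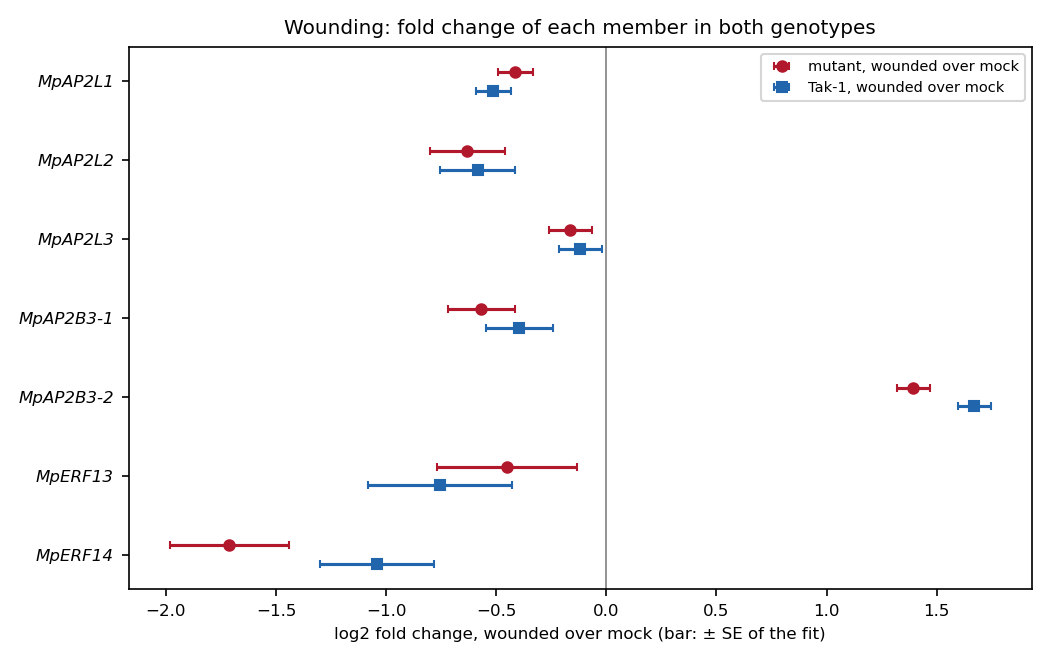
Log2 fold change (wounded over mock) of each member in the mutant and in Tak-1; bars are ± SE of the edgeR fit over all 12 libraries. MpAP2B3-2 stands at 1.39 and 1.67, and the other 6 members lie between -1.71 and -0.12.

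MpERF13, the oil body factor, had 2.44, 2.81 and 1.33 CPM in the wounded mutant, against 2.86, 2.11 and 3.91 CPM in mutant mock libraries. It had 1.64, 1.76 and 1.45 CPM in wounded Tak-1 libraries, against 2.197, 2.24 and 3.69 CPM in Tak-1 mock libraries. The groups overlapped in the mutant but not in Tak-1, and the log2 fold change was -0.45 ± 0.32 and -0.76 ± 0.32 (SE, mutant and Tak-1). In the mutant the fold change was -0.18 without wounded library B, -0.20 without mock library 3 and -0.30 without both libraries A and B, and in Tak-1 it was -0.46 without mock library 3. These values rest on 33 to 118 counts per library. The exact 95% Poisson interval was 0.999 to 2.04 CPM for wounded Tak-1 library 3 (33 counts) and 1.65 to 2.98 CPM for Tak-1 mock library 2 (47 counts). These intervals overlap, and they cover counting error only.

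MpERF14 had 1.60, 1.13 and 1.26 CPM in wounded mutant libraries, against 5.601, 3.91 and 3.66 CPM in mutant mock libraries. It had 2.097, 1.63 and 2.77 CPM in wounded Tak-1 libraries, against 4.57, 3.44 and 5.31 CPM in Tak-1 mock libraries. Wounded libraries lay below mock libraries in both genotypes without overlap, and the log2 fold change was -1.71 ± 0.27 in the mutant and -1.04 ± 0.26 in Tak-1 (SE), or 0.305 and 0.486 times the mock level. Of all tested genes, 0.68% in the mutant and 4.57% in Tak-1 had a lower fold change. Counts were 23 to 170 per library, and the 23 counts of wounded mutant library A have an exact 95% Poisson interval of 14.6 to 34.5.

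The ratio of MpERF13 to MpERF14 counts was 1.69 ± 0.725 in mutant wounded, 0.706 ± 0.314 in mutant mock, 0.795 ± 0.278 in Tak-1 wounded and 0.609 ± 0.113 in Tak-1 mock libraries (SD, n = 3). The wounded mutant libraries, at 1.52, 2.48 and 1.06, overlapped with the mutant mock libraries, at 0.510, 0.541 and 1.07. The Tak-1 groups overlapped too, at 0.524 to 1.08 in wounded and 0.481 to 0.694 in mock libraries.

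**Figure D3:**
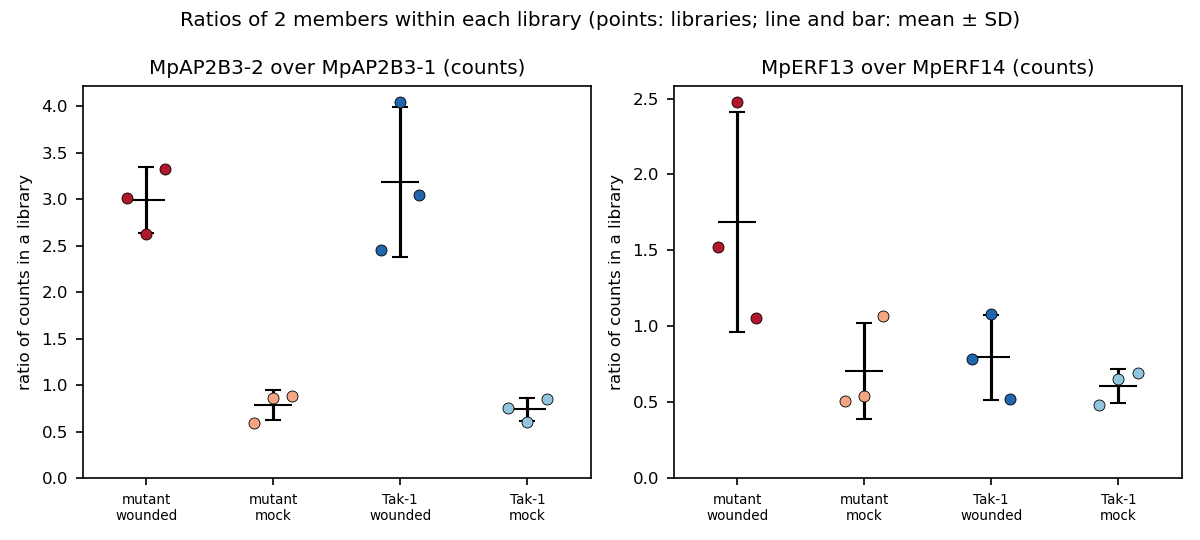
Ratio of raw counts within each library (axes from 0) for MpAP2B3-2 over MpAP2B3-1 (left) and MpERF13 over MpERF14 (right), by group; points are libraries, lines and bars mean ± SD (n = 3). The left ratio is 2.46 to 4.05 in wounded and 0.597 to 0.886 in mock libraries, and the right one is 1.06 to 2.48 in wounded mutant and 0.481 to 1.08 in the other libraries.

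Whether the oil body genes known to go with MpERF13 had like values was described with genes listed by name. MpABCG1 (Mp8g13070), a transporter of the oil body membrane, fell in both genotypes. It had 8.50 ± 0.857 CPM in mutant wounded and 18.3 ± 1.96 CPM in mutant mock libraries (-1.10 ± 0.14 on the log2 scale, edgeR adjusted p = 2.01e-05). In Tak-1 it had 8.72 ± 0.840 CPM in wounded and 18.2 ± 2.86 CPM in mock libraries (-1.06 ± 0.14, adjusted p = 2.24e-05). MpSYP12B (Mp4g20670), a syntaxin of the same membrane, did not pass the test, with 2.54 ± 0.911 and 3.52 ± 1.03 CPM in mutant wounded and mock and 3.00 ± 0.433 and 3.43 ± 0.389 CPM in Tak-1 wounded and mock libraries. For wounded against mock within the mutant, MpSYP12B was called lower when wounded mutant library 1 was left out (-0.80, adjusted p = 0.0359). MpC1HDZ (Mp3g02320), a homeodomain factor needed for oil body cells, rose to 93.4 ± 11.8 CPM in mutant wounded against 45.8 ± 6.41 CPM in mutant mock, and to 168 ± 14.8 CPM in Tak-1 wounded against 49.3 ± 5.97 CPM in Tak-1 mock (adjusted p = 1.42e-05 in the mutant and 8.03e-08 in Tak-1; ± is SD for CPM and SE for fold changes, n = 3). In wounded plants MpC1HDZ was lower in the mutant than in Tak-1 (-0.84 ± 0.12, adjusted p = 0.000513). Its difference of responses (-0.73 ± 0.17, adjusted p = 0.0391) was not called in 8 of the 12 fits without a single library (0.0709 to 0.102). Among the 16 tested of 32 IDs whose symbol starts like that of an oil body gene, 5 were higher and 3 lower after wounding in the mutant, where 28.6% of all tested genes were higher and 22.6% lower. In Tak-1, 6 were higher and 2 lower, where 30% of all tested genes were higher and 25% lower. In wounded plants, 1 of the 16 was higher and 5 were lower in the mutant than in Tak-1 (median log2 fold change -0.49), where 5.03% of all tested genes were higher and 9.51% lower. The list also takes in genes named ABCG10 to ABCG19, which share only the start of a name, and terpene synthase-like genes.

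The mutant was tested against Tak-1 next, first in mock plants. In edgeR's quasi-likelihood test 0 of 7 members differed between mutant mock and Tak-1 mock, where 4.52% of all tested genes were called (2% higher and 2.51% lower). With no adjustment 0 members had a p under 0.05, and DESeq2 called 0. MpAP2L1 was the only member whose groups did not overlap, with 207 to 230 CPM in mutant mock and 238 to 253 CPM in Tak-1 mock libraries (log2 fold change -0.15 ± 0.08 (SE), adjusted p = 0.351). Such a gap on the lower side was seen in 12.4% of all tested genes. The 95% intervals of the other fold changes were narrowest for MpAP2B3-2, at -0.23 to 0.10, and widest for MpERF13, at -0.56 to 0.80, so for MpERF13 a difference of that size cannot be told from none.

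After wounding, 1 of 7 members was called, against 14.5% of all tested genes in either direction, 5.03% on the higher and 9.51% on the lower side. With no adjustment 2 members, MpAP2B3-2 and MpERF14, had a p under 0.05 in edgeR's test, and DESeq2 called 1. MpAP2B3-2 was at 89.7 ± 7.22 CPM in mutant wounded and 114 ± 5.002 CPM in Tak-1 wounded libraries (SD, n = 3), lower in each of 3 mutant libraries. The log2 fold change (mutant over Tak-1) was -0.34 ± 0.07 (SE, adjusted p = 0.00687). Without any single library of the 12 the adjusted p was 0.00475 to 0.0353. Without both libraries A and B it was 0.0724, with the remaining wounded mutant library assumed to vary like the other groups.

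MpERF14 was also lower in each wounded mutant library, at 1.13 to 1.60 CPM, than in each wounded Tak-1 library, at 1.63 to 2.77 CPM, but the adjusted p was 0.124 (log2 fold change -0.69 ± 0.28, SE). The share of all tested genes with such a gap on the lower side was 17.3%. MpAP2B3-1 overlapped between the groups, at 29.3 to 31.7 CPM in mutant wounded and 28.6 to 44.04 CPM in Tak-1 wounded libraries (-0.30 ± 0.15, SE, adjusted p = 0.219). Without wounded Tak-1 library 2, which holds its lowest value, MpAP2B3-1 was called lower in the mutant (-0.46, adjusted p = 0.0467). MpAP2L1 (-0.05), MpAP2L3 (0.05), MpAP2L2 (0.20) and MpERF13 (0.43) were not called either, with adjusted p from 0.446 to 0.784.

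**Figure D4:**
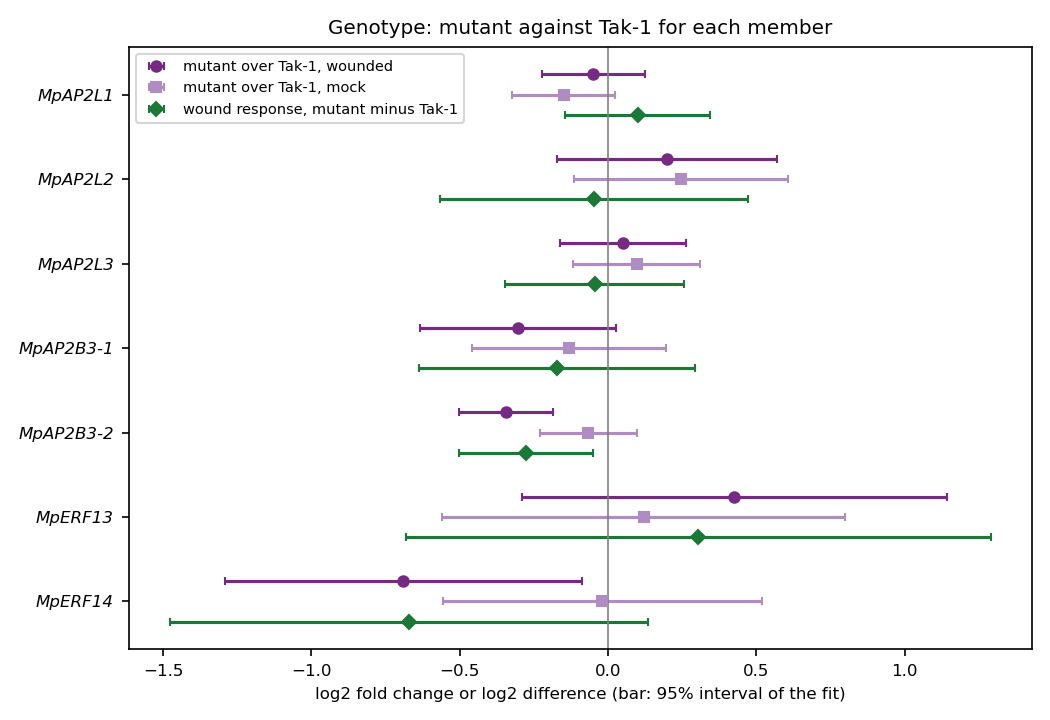
Log2 fold change of mutant over Tak-1 in wounded and in mock plants, and the log2 difference of the wound responses (mutant minus Tak-1), for each member; bars are 95% intervals of the edgeR fit over all 12 libraries, before adjustment for the number of genes. Only the wounded value of MpAP2B3-2, at -0.34, was called after adjustment.

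The wound responses of the genotypes were compared by their difference, mutant minus Tak-1. In edgeR's test 0 of 7 members were called, against 3.29% of all tested genes (0.692% higher and 2.59% lower), and DESeq2 called 0. With no adjustment 1 member had a p under 0.05. This was MpAP2B3-2, with a log2 difference of -0.28 ± 0.10 (SE, adjusted p = 0.210), so a difference between the responses was not shown. MpERF14 had the largest difference in size, -0.67 ± 0.37 (SE, adjusted p = 0.439), with a 95% interval of -1.48 to 0.14. For the AP2-like genes the intervals ran from -0.14 to 0.34 for MpAP2L1, from -0.56 to 0.47 for MpAP2L2 and from -0.35 to 0.26 for MpAP2L3.

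The order of the 4 groups differed from gene to gene. The mean of MpAP2L1 was highest in Tak-1 mock (244 CPM), followed by mutant mock (220 CPM), Tak-1 wounded (171 CPM) and mutant wounded (165 CPM), and the last pair overlapped. MpERF14 had the same order, at 4.44, 4.39, 2.17 and 1.33 CPM, and here the first pair overlapped. MpAP2B3-1 followed it too, at 48.9, 44.6, 37.1 and 30.1 CPM, with every neighbouring pair overlapping. MpAP2L2, MpAP2L3 and MpERF13 were highest on average in mutant mock and lowest in Tak-1 wounded libraries, but all neighbouring groups overlapped. MpAP2B3-2 stood in the order Tak-1 wounded, mutant wounded, Tak-1 mock and mutant mock, at 114, 89.7, 35.7 and 34.1 CPM, the last pair overlapping.

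Besides the 7 members, 24 IDs have a symbol that starts like an AP2/ERF name, and 15 of them passed the low-count filter. MpCBF5 is among the 15 by its letters only, since CBF5 is the name of a pseudouridine synthase of RNA. Without it, 14 were tested. After wounding, 10 of the 14 were higher, 3 lower and 1 not called in the mutant, and 11 were higher, 1 lower and 2 not called in Tak-1, with median log2 fold changes of 1.47 and 1.41. In the same test 28.6% of all genes were higher and 22.6% lower in the mutant, and 30% were higher and 25% lower in Tak-1. The members lie mostly on the other side, which is no result about them, since the set was drawn up with the wound responses known.

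The strongest rises were those of MpERF21, to 121 ± 20.3 CPM in mutant wounded against 0.313 CPM in mutant mock, and to 236 ± 18.05 CPM in Tak-1 wounded against 0.131 CPM in Tak-1 mock. MpERF9 rose to 45.4 ± 1.01 CPM in mutant wounded against 0.114 CPM in mutant mock, and to 45.8 ± 5.07 CPM in Tak-1 wounded against 0.0764 CPM in Tak-1 mock. These mock levels lie near the detection floor, so the sizes of the folds are uncertain. On the lower side stood MpERF16, with 0.670 ± 0.319 CPM in mutant wounded and 1.38 ± 0.191 CPM in mutant mock libraries. In Tak-1 it had 0.122 CPM in wounded and 0.359 CPM in mock libraries. It held 178 counts over all 12 libraries, and its Tak-1 wounded level also lies near the floor, so the size of its Tak-1 fold is uncertain. Its adjusted p was 0.0405 in the mutant and 0.0451 in Tak-1, and it was over 0.05 in 5 of the fits without a single library in the mutant (0.0537 to 0.15) and in 8 in Tak-1 (0.053 to 0.201). MpERF17, the neighbour of MpERF16, and MpERF4 were also called lower in the mutant (-0.75 and -0.23, adjusted p = 0.0265 and 0.0297) and MpERF4 was named after its value was seen. The MpERF17 call was lost without mutant mock library 3 or wounded mutant library 1 or B (0.0674 to 0.107), and the MpERF4 call without mutant mock library 1 or 2 or wounded mutant library A or B (0.0631 to 0.103). MpCBF5 was lower in both genotypes, with log2 fold changes of -0.76 ± 0.11 in the mutant and -0.78 ± 0.11 in Tak-1 (adjusted p = 6.85e-05 and 5.11e-05).

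**Figure D5:**
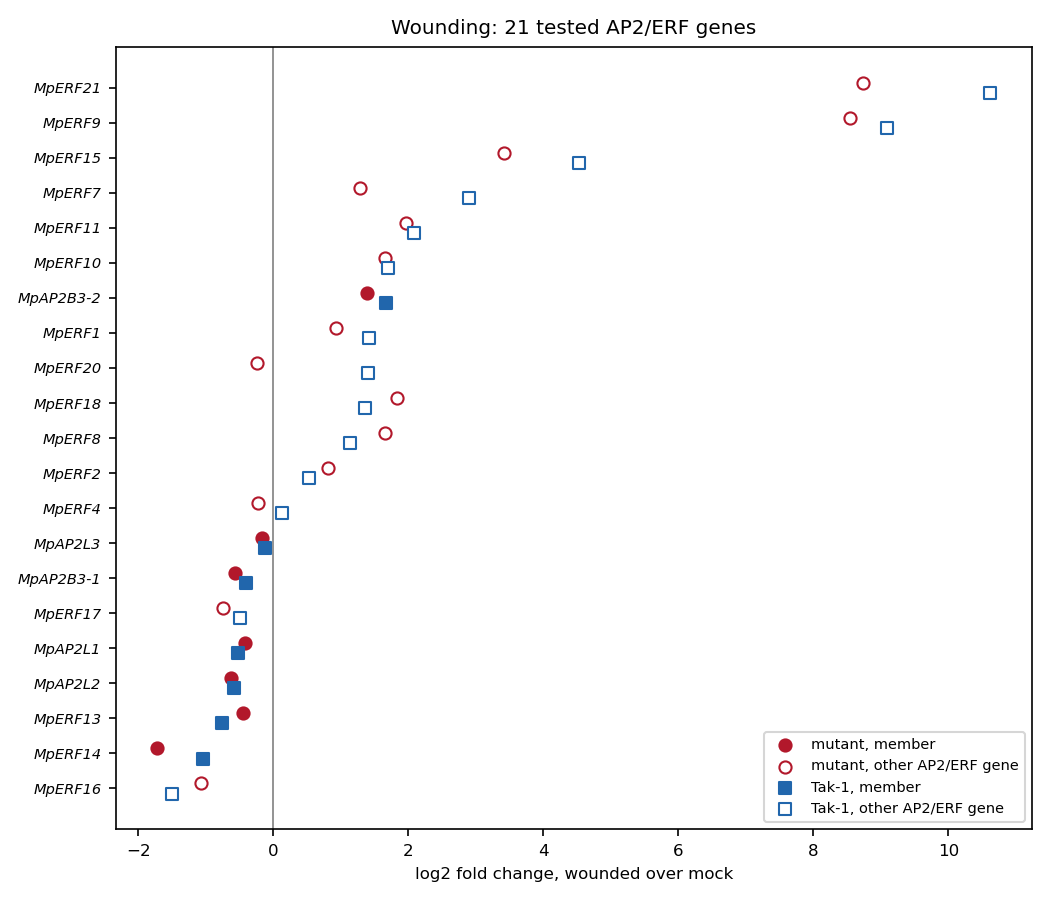
Log2 fold change (wounded over mock) of the 7 members (filled) and of 14 other tested AP2/ERF genes (open) in the mutant (circles) and in Tak-1 (squares), in the order of the Tak-1 value. MpERF21 and MpERF9 lie at 8.55 to 10.62, and MpERF14 lies at -1.71 and -1.04.

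Between the genotypes, 7 of the same 14 genes were called in wounded plants (2 higher and 5 lower in the mutant), where 14.5% of all tested genes were called (5.03% higher and 9.51% lower). In mock plants 3 were called (2 higher and 1 lower), where 4.52% of all tested genes were called (2% higher and 2.51% lower). MpERF16 and MpERF17, between which reads could be split if their sequences are alike, were the higher pair in both, MpERF17 with 9.04 ± 1.97 CPM in mutant wounded and 3.39 ± 1.12 CPM in Tak-1 wounded (log2 fold change 1.42 ± 0.27, adjusted p = 0.00415). In mock plants MpERF17 had 15.1 ± 1.499 CPM in the mutant and 4.68 ± 1.60 CPM in Tak-1 (1.68 ± 0.27, adjusted p = 0.00669). MpERF16 lay near the detection floor in Tak-1 wounded libraries (0.122 CPM), so the size of its fold in wounded plants is uncertain. MpERF18 was lower in mutant mock (-0.47 ± 0.10, adjusted p = 0.0291), and MpERF8 was not called (-0.44 ± 0.14, adjusted p = 0.118). In mock plants the calls of MpERF16 and MpERF18 were lost without mutant mock library 2 or 3 or Tak-1 mock library 3, and also without Tak-1 mock library 2 for MpERF16 and 1 for MpERF18 (0.0656 to 0.116). For the difference of responses 1 of the 14 was called, on the lower side, against 2.59% of all tested genes. MpERF8 (0.52) and MpERF18 (0.47) stood at the high end and MpERF20 (-1.64) and MpERF21 (-1.88) at the low end, with adjusted p from 0.107 to 0.353. DESeq2 did call MpERF18 (adjusted p = 0.0414). MpERF15, given for this contrast after its value was seen, was not called by edgeR (-1.12, adjusted p = 0.0557). It was called by DESeq2 (0.00181) and by edgeR without the filter (0.0391). In edgeR fits without a single library its adjusted p was 0.00558 to 0.133.

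The 5 lower in wounded mutant plants were MpERF1, MpERF7, MpERF15, MpERF20 and MpERF21, of which MpERF1 and MpERF7 are named after their values were seen. MpERF20, known in Marchantia as the regeneration factor LAXR, was at 0.882 ± 0.203 CPM in mutant wounded and 2.70 ± 0.825 CPM in Tak-1 wounded libraries (-1.60 ± 0.35, adjusted p = 0.00801). MpERF15 was at 59.3 ± 17.9 CPM in mutant wounded and 155 ± 22.4 CPM in Tak-1 wounded libraries (-1.39 ± 0.18, adjusted p = 0.000243). The MpERF1 call (-0.45, adjusted p = 0.0236) was lost without any single wounded library other than Tak-1 wounded library 3 (0.0539 to 0.0852), and DESeq2 did not call MpERF21 (adjusted p = 0.267). MpAP2B3-2 and these 5 genes were compared in the same 6 libraries.

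The other 9 IDs were too low to test. MpERF5, MpERF19, MpERF22 and the 4 AP2-like genes above had 0 counts in all 12 libraries, MpERF23 had 3 counts in all and MpERF12 had 49.

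Genes with a symbol whose log2 CPM followed a member most closely over the 12 libraries were found by Pearson's r among 2537 candidates, as a description of libraries that share 4 group means. MpAP2B3-2 was most like MpWRKY9 (r = 0.996) and MpPP2C_G (r = 0.995). MpWRKY9 had 111, 22.3, 145 and 25.7 CPM, and MpPP2C_G 308, 70.6, 501 and 69.4 CPM, on average in mutant wounded, mutant mock, Tak-1 wounded and Tak-1 mock libraries. Both thus had, like MpAP2B3-2, their highest mean in Tak-1 wounded libraries.

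MpAP2L1 was most like MpNEK (r = 0.975) and MpABCF1 (r = 0.971), and MpNEK had 135, 251, 142 and 297 CPM in the same order of groups. MpERF14 was most like MpC3H (r = 0.969) and MpDOXC10 (r = 0.959), with 71.4, 109, 82.2 and 112 CPM for MpC3H. MpAP2B3-1 was most like MpOMT21 (r = 0.958) and MpNPF31 (r = 0.938), and MpAP2L2 most like MpPMT.8 (r = 0.945) and MpCOMT (r = 0.940). The best values were lower for MpAP2L3, with MpPP2C_N (r = 0.852) and MpPPR_26 (r = 0.835), and for MpERF13, with MpPOD87 (r = 0.798) and MpUGT1 (r = 0.795). The genes next to the members in the reference order carry no symbol and are not described.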

How the data were processed

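RNA was sequenced from 12 libraries in 4 groups of 3. The deposited table holds raw gene counts, not normalised by the authors as far as the values show, since they are whole and library totals differ. The submitters' processing notes list Trim Galore, HISAT2, HTSeq and edgeR with no version or role. Genome build, annotation and strandedness were not stated in what was used here. Since strand is unknown, reads of overlapping genes cannot be told apart. All 12 columns were used; of 20574 IDs, 17641 (99.1% of the counts) matched the reference gene table of MpTak2_v7.1, used for names and gene order.

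The fit used edgeR 4.0.16 under R 4.3.3, with filterByExpr by group, TMM scaling and a quasi-likelihood fit with 1 mean per group (8 residual and 4.46 prior degrees of freedom). The 5 contrasts were two-sided, and the call threshold was 0.05 after Benjamini-Hochberg adjustment across 13726 IDs. Adjusted p-values are edgeR's unless DESeq2 (1.42.0) is named. CPM use the TMM-scaled totals of tested genes; log2 CPM for likeness had a prior count of 2. The SE is the log2 fold change over the square root of the F statistic. The code was run on counts simulated from the fit's own dispersions, which cannot show how well the fit suits these data. Alternatives were DESeq2, other scalings, no filter, fewer groups in the fit, a replicate block, and leaving out libraries.

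The members and lists were chosen with earlier results of these data known. Named genes are the members, the other AP2/ERF genes with the 2 largest and 2 smallest fold changes of each contrast, and the 2 genes most like each member. MpABCG1, MpSYP12B and MpC1HDZ were picked by name from the oil body list, outside this rule. Further AP2/ERF genes named for their values are said to be named after these were seen. Replicates are separate pools of plants, per the labels' protocols.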

Additional observations from a re-analysis of the deposited data

Results flagged for a closer look

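MpERF7 (Mp6g04880), an AP2/ERF gene outside the 7 members and named after its value was seen, had unlike wound responses in the genotypes. It averaged 41.8 CPM in mutant wounded, 17.3 CPM in mutant mock, 93.1 CPM in Tak-1 wounded and 12.4 CPM in Tak-1 mock libraries. The log2 difference of the responses, mutant minus Tak-1, was -1.62 ± 0.26 (SE, edgeR adjusted p = 0.00443), and without any single library the adjusted p was 0.00454 to 0.0151. None of the 7 members met this rule in edgeR's test; with no adjustment 1 member, MpAP2B3-2, had a p under 0.05, and DESeq2 called 0. Pairs of libraries within a group correlated at 0.979 to 0.992 (Pearson's r of log2 CPM). In mutant mock, library 1 correlated at 0.982 and 0.979 with libraries 2 and 3, which correlated at 0.988 with each other. No rule for a library far from the others was applied, and all 12 libraries were kept in the main fit.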

How the results depend on the processing

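Over 637 values of members under alternatives, 627 kept their side of the threshold or moved by less than the replicate SD, 8 moved by more, 1 call was lost, 1 was gained, and no called or wound value changed direction. The called value of MpAP2B3-2 in wounded plants was kept under DESeq2, upper-quartile and RLE scaling, no filter, fewer groups in the fit and each left-out library; it was lost without both unnumbered libraries (chosen after seeing the data), which left 0 members called, 4 other AP2/ERF genes and 876 genes in all. The same alternative gave 304 genes in mock plants, 252 genes and 2 other AP2/ERF genes for the difference of responses, and 4667 for wounding in the mutant; the cause was not tested, but fewer samples enter. Without them MpAP2L2 stood at -0.37 and MpAP2L1 at -0.28 in the mutant (wounded over mock).

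DESeq2 called 1063 genes in mock plants and 805 for the difference (620 and 451 in edgeR), and 3 other AP2/ERF genes for the difference; without the filter 2 were called. With only the mock groups in the fit 210 genes were called and 1 other AP2/ERF gene. Leaving out each library gave 138 to 727 genes and 1 to 3 other AP2/ERF genes in mock plants, 1153 to 2287 genes and 1 to 2 members in wounded plants, and 261 to 480 genes and 1 to 2 other AP2/ERF genes for the difference. A replicate block in mock plants gave 59 genes, 0 members and 1 other AP2/ERF gene. Same-numbered mock libraries correlated at -0.089, -0.119 and 0.104 in their deviations. Same-numbered Tak-1 wounded and mock libraries correlated at -0.113, -0.032 and -0.088. These values showed no pairing by number, and whether the numbers mark a shared batch or harvest was not tested. With 2 wounded mutant libraries unnumbered, no block was fitted for the wounded plants, the mutant or the difference. At 33 to 118 counts per library, MpERF13 limits what can be seen.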
